A study of Homo sapiens with 6 samples.

Results

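The 116 entries described here are the mature miRNAs numbered from miR-4632 to miR-4804, out of 1247 entries in the full count table, with both arms and without miR-4634 and miR-4787-5p. They were chosen by their number, apart from those omissions, with earlier results of these data known. The omitted entries were both abundant and higher in shWDR4 exosomes, at 21.1-fold (19.8 to 22.5) for miR-4634 and 44.1-fold (40.7 to 47.9) for miR-4787-5p. Exosomes are small vesicles that cells release, and these came from the human cell line H1299, grown from a non-small cell lung cancer. The shWDR4 group stably expressed a short hairpin RNA against WDR4, and the control group a control short hairpin RNA. Both carried the genotype label of wild type, and both were kept in exosome-free medium for 48 hours. WDR4 is the partner subunit of the methyltransferase METTL1, which places 7-methylguanosine on RNA. Each group had 3 libraries, deposited as 1 joined count column, so the spread between repeats is unknown and no test between the groups could be run. The sources used here do not say whether the cells were a pool or a single clone. The entries are miRNAs alone, so WDR4 itself and the protein-coding markers of the line or of exosomes could not be checked.

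A miRNA is cut from the stem of a hairpin transcript, first by Drosha in the nucleus and then by Dicer, and either arm of the stem (5p or 3p) can be loaded into Argonaute. The seed, bases 2 to 8 of the mature strand, pairs with target messenger RNAs. Numbers follow the order of registration, so neighbours in number share a time of discovery and no function. Many entries of this stretch were registered from deep sequencing of breast tumours and normal breast tissue, and such late entries are mostly rare and lie within other genes.

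Mature sequences of the 10 members with at least 50 counts over both columns are shown because they carry most of the counts. They are RefSeq sequences on GRCh38.p14, written 5′ to 3′, with the seed in capitals.
miR-4800-3p: cAUCCGUCcgucuguccac
miR-4785: aGAGUCGGcgacgccgccagc
miR-4739: aAGGGAGGaggagcggaggggcccu
miR-4771: aGCAGACUugaccuacaauua
miR-4741: cGGGCUGUccggaggggucggcu
miR-4745-5p: uGAGUGGGgcucccgggacggcg
miR-4685-3p: uCUCCCUUccugcccuggcuag
miR-4758-5p: gUGAGUGGgagccgguggggcug
miR-4763-5p: cGCCUGCCcagcccuccugcu
miR-4791: uGGAUAUGaugacugaaa

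Of the 116 members, 106 had a RefSeq mature sequence. Among listed entries with a sequence, 21 members shared the seed of another entry, and none of the 10 above was among them. The member miR-4665-5p shared its seed with miR-1275, an abundant entry with 15097 counts in shWDR4 and 2083 in control. Counts of miR-4665-5p itself were 17 in shWDR4 and 16 in control.

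Most members were rare. The shWDR4 column held 552913 counts in all and the control column 1020282, and the members summed to 2165 and 995 of them. Under 10 counts over both columns were found for 60 members and under 50 for 106. Levels below are CPM, the count divided by the column total and multiplied by 1000000. A count of 0 allows up to 3 counts, which is 5.43 CPM in shWDR4 and 2.94 CPM in control. Intervals are exact 95% intervals (Clopper-Pearson, which for a fold holds the summed count fixed), and intervals and floors cover counting error only.

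At least 1 count was found for 100 members in shWDR4 and for 78 in control, although the control column was deeper. Those are 86.2% and 67.2% of the batch, beside 85.1% and 72.7% of all 1247 entries. Thinning control to the shWDR4 depth would leave 72.3 of them on average. Reads in shWDR4 alone were found for 38 members, 32.8% of the batch, beside 27.3% of all 1247 entries, and reads in control alone for 16 members (13.8%, beside 14.9% of all entries). Of the 38, 28 had at most 3 counts in shWDR4, and the largest had 18. Of the 16, 4 had at most 3 counts in control, and the largest had 23. With at least 3 counts required, 69 members were found in shWDR4 and 65 in control, and over all entries 803 (64.4%) and 797 (63.9%), so the gap in detection at 1 count shrank in the whole table as in the batch.

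**Figure D1:**
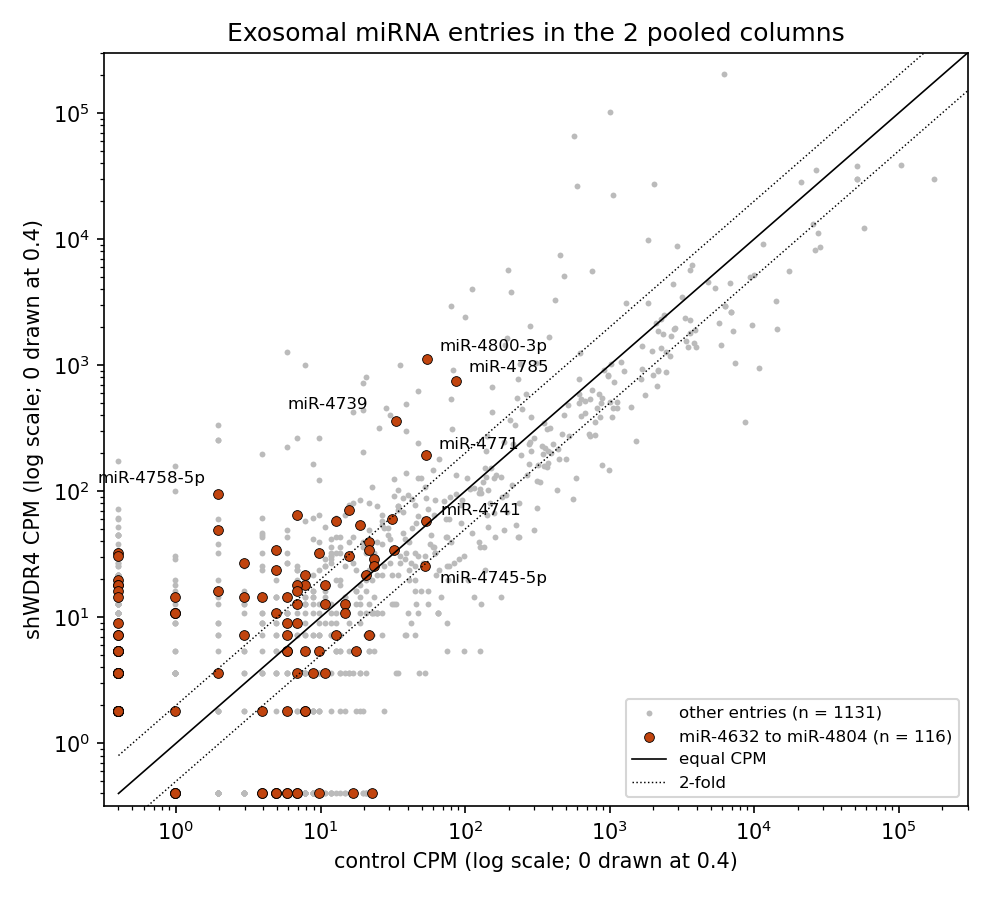
CPM of each entry in the pooled shWDR4 column (vertical axis) against the pooled control column (horizontal axis), both on log scales with a 0 drawn at 0.4; orange points are the 116 members, grey points the other 1131 entries, and lines mark equal CPM and 2-fold differences. The members lie in the lower left, and miR-4800-3p, miR-4785 and miR-4739 stand above the 2-fold line.

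Together the members took 0.392% of the shWDR4 counts (0.375 to 0.408) and 0.0975% of the control counts (0.0916 to 0.104), a 4.02-fold higher share (3.72 to 4.33). The 3 largest members, miR-4800-3p, miR-4785 and miR-4739, held 57.1% of the batch's counts in shWDR4 and 17.9% in control. Without them the sum was 2.10-fold higher (1.91 to 2.31). With miR-4634 and miR-4787-5p, which the rule leaves out, the number range took 5.26% of the shWDR4 and 0.263% of the control counts.

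Of the 10 members with at least 50 counts, 6 were higher by 2-fold or more in shWDR4, 1 was lower by 2-fold or more, and 3 differed by less. Among all 349 entries of that depth 26.1% were higher and 31.5% lower by that rule. The median log2 fold (shWDR4 over control) was 2.01 over the 10 members and -0.37 over the 349 entries. The depth rule sums both columns, so a member can pass it through the column where it is high. With a minimum of 20 counts, 13 members were higher and 4 lower. The median was then 0.93 over 29 members and -0.23 over 501 entries. The split of the 10 became 7 higher and 0 lower with trimmed mean of M values scaling, and likewise with column totals that leave out miR-3960. Over all 349 entries the first scaling gave 28.1% higher and 26.6% lower, and the second 29.5% higher and 22.6% lower. The authors' deposited table, which compares the pooled columns, marked 23 of the 116 members as higher in shWDR4 (19.8%, beside 15.4% of all its entries) and 2 as lower (1.72%, beside 10.8%). Members under 50 counts made up 17 of the 23 and both of the 2. Since these marks rest on the pooled columns, they hold no spread between the libraries.

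The largest member was miR-4800-3p, with 621 counts in shWDR4 and 56 in control (1123 and 54.9 CPM), a 20.5-fold higher level (15.6 to 27.4). Its hairpin lies on chromosome 4 at 2250077 to 2250156, in the 3′ UTR of MXD4 on the same strand. MXD4 binds MAX and opposes MYC at target genes. The opposite arm, miR-4800-5p, had 1 count in shWDR4 and 0 in control, so nearly every read of this hairpin came from the 3p arm in both columns.

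Next came miR-4785, with 418 counts in shWDR4 and 88 in control (756.0 and 86.3 CPM), 8.77-fold higher (6.95 to 11.2). It lies in the 5′ UTR of RBMS1, which encodes a protein that binds RNA and single-stranded DNA, on chromosome 2 at 160407810 to 160407882. The mature letters of miR-4800-3p and miR-4785 also stand in spliced protein-coding transcripts of MXD4 and RBMS1. Reads from those messenger RNAs would carry the same letters, and their part in the counts was not tested.

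The purine-rich miR-4739 had 198 counts in shWDR4 and 34 in control (358.1 and 33.3 CPM), 10.7-fold higher (7.44 to 16.0). Its hairpin, on chromosome 17 at 79707176 to 79707249, lies outside annotated genes. The member miR-4771 had 107 counts in shWDR4 and 55 in control, 3.59-fold higher (2.57 to 5.06). Identical copies of miR-4771 lie on chromosome 2 at 87194786 to 87194859, outside genes, and at 111771061 to 111771134, in an intron of ANAPC1, a subunit of the anaphase-promoting complex, so its reads cannot be given to either place. At 38.1% GC it differs in base content from the other members that were 2-fold higher at this depth, which ran from 63.2% to 76.2%.

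Less deep were miR-4758-5p and miR-4763-5p. The first had 53 counts in shWDR4 and 2 in control, 48.9-fold higher with a wide interval (12.9 to 414.3). Its hairpin, on chromosome 20 at 62332487 to 62332557, overlaps coding sequence of LAMA5, a laminin chain of basement membranes, but its mature letters stand in no spliced transcript of that gene. The second had 39 counts in shWDR4 and 16 in control, 4.50-fold higher (2.46 to 8.62). It comes from an exon of MIRLET7BHG, the host transcript of let-7a-3 and let-7b.

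The 4 other members of this depth were less far apart or lower. In shWDR4 miR-4685-3p had 33 counts and in control 32, 1.90-fold higher (1.13 to 3.20), from an intron of HPS1, which acts in the making of lysosome-related organelles. The fold of miR-4685-3p was 1.46 (0.871 to 2.45) with upper-quartile scaling, an interval that includes no difference. With trimmed mean of M values scaling the fold was 2.13 (1.27 to 3.57). Counts of miR-4741, in the 5′ UTR of the DNA end resection gene RBBP8, were 32 in shWDR4 and 55 in control, a fold of 1.07 (0.672 to 1.69). Counts of miR-4791, which lies opposite an intron of the potassium channel gene KCNH8, were 19 in shWDR4 and 33 in control, a fold of 1.06 (0.571 to 1.92). The intervals of miR-4741 and miR-4791 include no difference, and both folds are below 1 with upper-quartile scaling. The other scalings raise both folds. With column totals that leave out miR-3960, miR-6126 and miR-7704, miR-4741 was at 1.70 (1.06 to 2.68) and miR-4791 at 1.68 (0.904 to 3.05). Only the second of those intervals includes no difference.

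The member 2-fold lower in shWDR4 at this depth was miR-4745-5p, with 14 counts in shWDR4 and 54 in control (25.3 and 52.9 CPM), 2.09-fold (1.15 to 4.07). With column totals that leave out miR-3960 the shWDR4 over control fold was 0.598 (0.307 to 1.09), which includes no difference. The authors' deposited table did not mark it. It lies in an intron of PTBP1, a repressor of splicing, on chromosome 19 at 804940 to 805001. The opposite arm had 3 counts in shWDR4 and 6 in control, a fold of 0.923 (0.149 to 4.32).

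**Figure D2:**
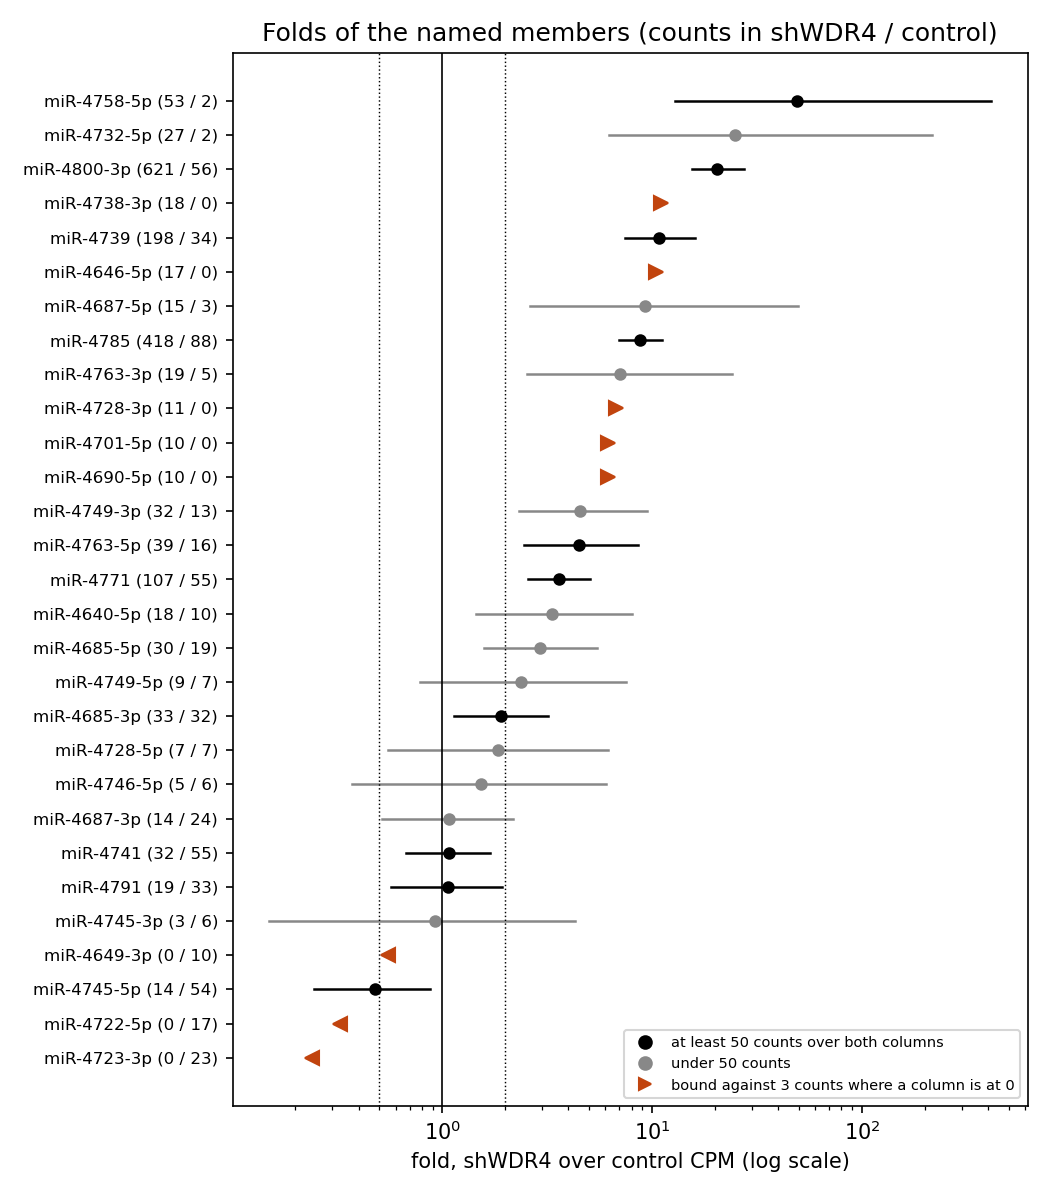
Fold, shWDR4 over control CPM, on a log scale, of the named members (rule given under processing) that have a fold or a bound. Counts in shWDR4 and control stand beside the name. Points with lines are folds with exact 95% intervals, and triangles are bounds against 3 counts where a column is at 0. The lines of miR-4800-3p (15.6 to 27.4) and miR-4758-5p (12.9 to 414.3) are both above 10, with far less depth behind miR-4758-5p.

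Position relative to genes was read from GENCODE release 29 for the 106 members with a RefSeq entry. By the position of the hairpin, 22 members were in the sense of a host gene and overlapped an exon, 59 were in the sense and intronic, 13 lay opposite a gene, 9 lay outside genes, and 3 had more than 1 locus. The exonic members summed to 1345 counts in shWDR4 and 332 in control, 7.48-fold higher (6.62 to 8.46), and the intronic ones to 331 and 386, 1.58-fold higher (1.36 to 1.84). Without miR-4800-3p and miR-4785 the exonic sum was 3.00-fold higher (2.50 to 3.62), still above the intronic interval in counting error. The class is set by the hairpin and not by the mature letters. That remainder holds miR-4758-5p and miR-4658, both higher in shWDR4, whose mature letters stand in no spliced transcript of their hosts. It also holds members in exons of noncoding transcripts. Members opposite a gene summed to 79 counts in shWDR4 and 101 in control, 1.44-fold higher (1.06 to 1.96). Outside the batch the exonic entries summed to a 1.14-fold higher share (1.12 to 1.15), and the intronic ones to a fold of 0.750 (0.745 to 0.754). Median log2 folds there were -0.57 over 70 exonic and -0.39 over 148 intronic entries with at least 50 counts. By that measure the exonic entries outside the batch were lower than the intronic ones. Other entries opposite a gene summed to a 14.5-fold higher share (14.2 to 14.9). Their median log2 fold was 0.06 over the 20 entries with at least 50 counts.

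The authors' deposited table marked 10 of the 22 exonic members as higher and none as lower, and 8 of the 59 intronic members as higher and 2 as lower. None of the 13 members opposite a gene was marked in the authors' deposited table. Outside the batch the authors' deposited table marked 24 of 149 exonic entries as higher (16.1%) and as many as lower. The authors' deposited table also marked 86 of 611 other intronic entries as higher (14.1%) and 63 as lower (10.3%), and 14 of 66 other entries opposite a gene as higher (21.2%) and 6 as lower (9.09%). No test of the difference between classes or between batch and other entries was made.

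**Figure D3:**
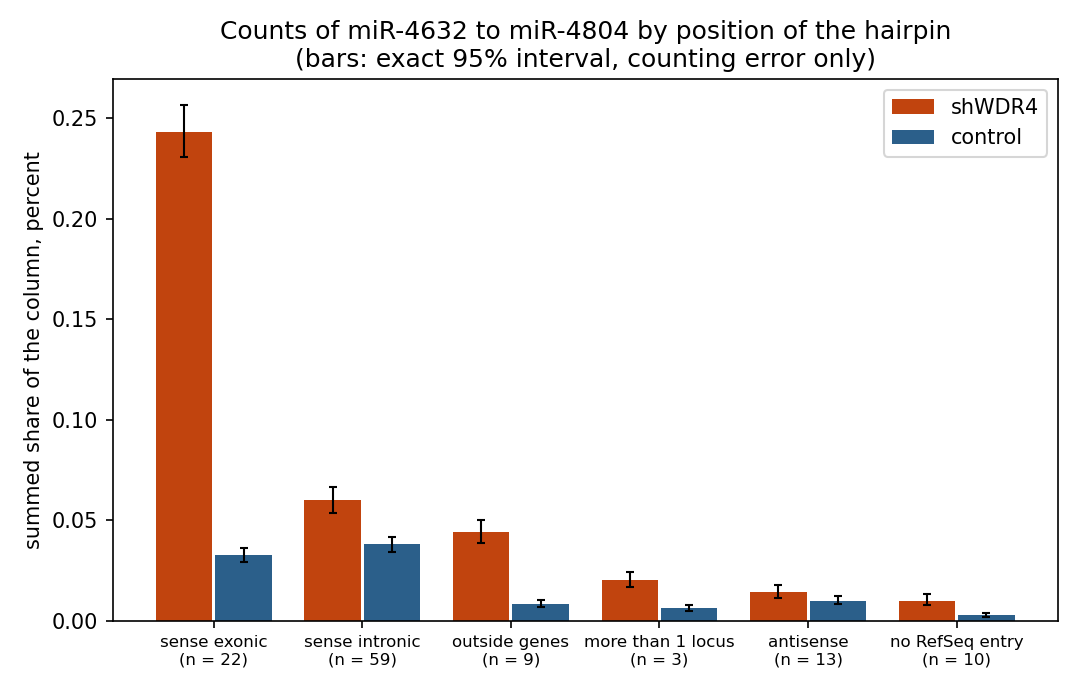
Summed share of each pooled column, in percent, for members grouped by hairpin position, with shWDR4 left of control and exact 95% intervals for counting error. Among the members the exonic class stands apart in shWDR4, at 0.243% against 0.0325% in control, while the intronic class is at 0.0599% and 0.0378%.

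The exonic class is shown further because it held most of the batch's counts in shWDR4. Besides MXD4, RBMS1 and LAMA5, its protein-coding hosts include STIM1, the calcium sensor of the endoplasmic reticulum, and AEBP1, a secreted protein of the extracellular matrix. Chosen after its values were seen, miR-4658 had 36 counts in shWDR4 and 7 in control, 9.49-fold higher (4.17 to 25.3). Its hairpin overlaps coding sequence of C7orf43, and its mature letters stand in no spliced transcript of that gene. At AEBP1 miR-4649-3p had 0 counts in shWDR4 and 10 in control, at least 1.81-fold lower against 3 counts over the group. That bound leaves out the counting error of the control count, and the authors' deposited table did not mark miR-4649-3p. Counts of miR-4649-5p were 3 in shWDR4 and 0 in control, too few for a fold or a direction.

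Long noncoding transcripts host miR-4763 and miR-4732, and both lie beside older miRNAs. The hairpin of miR-4763, on chromosome 22 at 46113566 to 46113657, lies 29 bases from that of let-7b on the same strand, within the same host gene. In shWDR4 miR-4763-5p was 4.50-fold higher and miR-4763-3p, with 19 counts in shWDR4 and 5 in control, 7.01-fold higher (2.53 to 24.0). By contrast let-7b-5p, which restrains growth, had 522 counts in shWDR4 and 11067 in control, 11.5-fold lower (10.5 to 12.6). Neighbours in a single host gene thus differed in direction. Their mature letters have no seed in common.
miR-4763-5p: cGCCUGCCcagcccuccugcu
miR-4763-3p: aGGCAGGGgcuggugcugggcggg
let-7b-5p: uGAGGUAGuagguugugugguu

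The hairpin of miR-4732, on chromosome 17 at 28861655 to 28861730, lies 37 bases from that of the erythroid miR-144. Counts of miR-4732-5p were 27 in shWDR4 and 2 in control, a ratio of 24.9 (6.26 to 216.2). Counts of miR-144-3p were 2 in shWDR4 and 7 in control, a fold of 0.527 (0.0534 to 2.77), which includes no difference. On the same chromosome miR-4725, named after its values were seen, lies 53 bases from miR-365b. Counts of miR-4725-3p were 16 in shWDR4 and 24 in control, a fold of 1.23 (0.611 to 2.41), which includes no difference. Those of miR-365b-5p were 57 and 35, 3.01-fold higher (1.94 to 4.72). Those of miR-365b-3p were 42 and 35, 2.21-fold higher (1.38 to 3.57). Also named after its values were seen, miR-3187 lies 8583 bases from miR-4745 on the same strand. Counts of miR-3187-5p were 145 in shWDR4 and 7 in control, 38.2-fold higher (18.1 to 96.8). Those of miR-3187-3p were 15 and 43, a fold of 0.644 (0.332 to 1.18), which includes no difference.

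Both arms were listed for 30 hairpins, and 18 of them had at least 20 counts over both arms and columns. Among the 18 the 5p arm was the larger in both columns for 5 and the 3p arm for 4, and for 9 the larger arm differed, was tied or could not be told. Summed over the batch, the 46 members named 5p were 2.68-fold higher in shWDR4 (2.30 to 3.13) and the 42 named 3p were 5.15-fold higher (4.51 to 5.88). The 28 members with no arm in the name were 4.09-fold higher (3.63 to 4.61). Summed over all entries of the table, the folds were 0.522 for the 503 named 5p and 0.704 for the 436 named 3p. For the 308 entries with no arm in the name the fold was 3.46. The 3p sum of the batch rests on miR-4800-3p, which holds 621 of its 859 shWDR4 counts. Without miR-4800-3p the 3p members summed to 238 counts in shWDR4 and 252 in control, 1.74-fold higher (1.45 to 2.09), below the fold of the 5p members.

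The 5p share of a hairpin's reads is independent of how the columns are scaled. Among 27 hairpins with reads in both columns its intervals were apart in 1, that of miR-4687 in STIM1. Over all 262 such hairpins of the table they were apart in 21.4%, and in 17.7% of the 209 with no more counts than the deepest of the batch, so a single case is no result about the batch. There miR-4687-5p had 15 counts in shWDR4 and 3 in control, a ratio of 9.23 (2.61 to 49.7), and miR-4687-3p had 14 and 24, a fold of 1.08 (0.515 to 2.17), below 1 with upper-quartile scaling. The 5p share was 51.7% in shWDR4 (32.5 to 70.6) and 11.1% in control (2.35 to 29.2). In miR-4685 and miR-4749 the intervals of the 5p share overlapped. Counts were 30 in shWDR4 and 19 in control for miR-4685-5p (2.91-fold, 1.59 to 5.48), 9 and 7 for miR-4749-5p (2.37-fold, 0.786 to 7.50) and 32 and 13 for miR-4749-3p (4.54-fold, 2.32 to 9.43), and the fold of miR-4749-5p includes no difference.
miR-4687-5p: cAGCCCUCcucccgcacccaaa
miR-4687-3p: uGGCUGUUggagggggcaggc

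A hairpin split by the rule showed a wider gap between arms. The member miR-4787-3p had 19 counts in shWDR4 and 22 in control, 1.59-fold higher (0.816 to 3.09), an interval that includes no difference. Its opposite arm miR-4787-5p, which is no member, had 14574 counts in shWDR4 and 610 in control. The hairpin lies outside genes on chromosome 3 at 50675080 to 50675163, and both arms are rich in G and C.
miR-4787-5p: gCGGGGGUggcggcggcauccc
miR-4787-3p: gAUGCGCCgcccacugccccgcgc

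**Figure D4:**
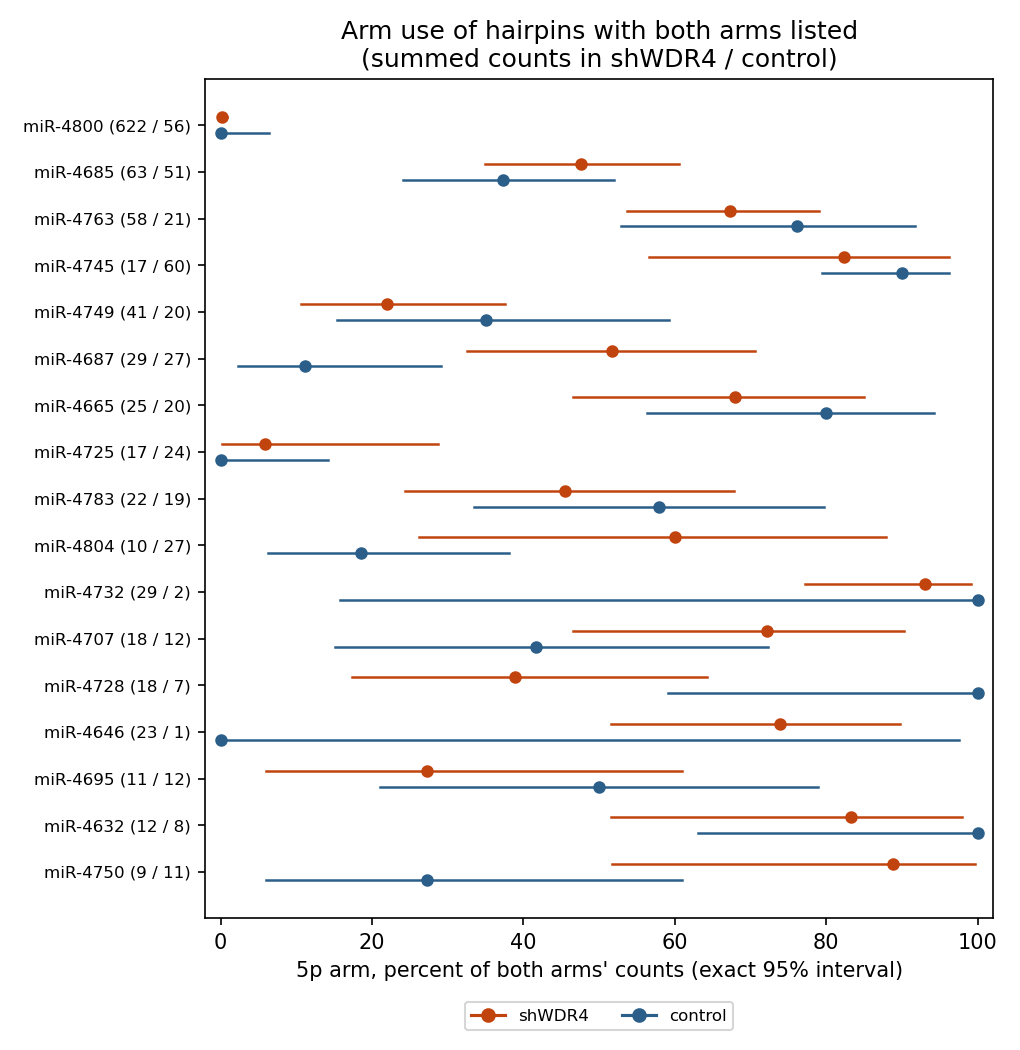
Share of the 5p arm in each hairpin's reads, in percent with exact 95% intervals, in shWDR4 (upper, orange) and control (lower, blue), for the hairpins with at least 20 counts and reads in both columns; summed counts stand beside the names. Lines overlap in every hairpin drawn except miR-4687, at 51.7% in shWDR4 and 11.1% in control.

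The breast cancer receptor gene ERBB2 hosts miR-4728 in an intron, on chromosome 17 at 39726495 to 39726561. Counts of miR-4728-3p were 11 in shWDR4 and 0 in control, at least 6.77-fold higher against 3 counts over the group. Those of miR-4728-5p were 7 in each column, a fold of 1.85 (0.552 to 6.17). At these depths a few reads decide the fold.
miR-4728-5p: uGGGAGGGgagaggcagcaagca
miR-4728-3p: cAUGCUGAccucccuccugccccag

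The members with the largest folds in the authors' deposited table were near the floor. With 0 counts in control, miR-4738-3p had 18 counts in shWDR4 (at least 11.1-fold higher against 3 counts over the group) and miR-4646-5p had 17 (at least 10.5-fold). The gene H3F3B, which encodes the replacement histone H3.3, hosts miR-4738 in an intron. Likewise miR-4690-5p, in an intron of PCNX3, and miR-4701-5p, in an intron of the adenylyl cyclase gene ADCY6, each had 10 counts in shWDR4 and 0 in control (at least 6.15-fold). These bounds leave out the counting error of the higher column.

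On the lower side the authors' deposited table marked miR-4723-3p, with 0 counts in shWDR4 and 23 in control, and miR-4722-5p, with 0 and 17. They were at least 4.15-fold and at least 3.07-fold lower against 3 counts over the group, bounds that leave out the counting error of control. Their hosts are TMEM199, which acts in assembly of the vacuolar proton pump, and the mechanically gated channel gene PIEZO1. The opposite arm miR-4722-3p, named after its value was seen, also had no read in shWDR4 and 7 in control.

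Further members of the list of host genes were also thin. In an intron of the collagen receptor gene DDR1, miR-4640-5p had 18 counts in shWDR4 and 10 in control, 3.32-fold higher (1.45 to 8.05), and the authors' deposited table marked it higher. Opposite UBXN6, miR-4746-5p had 5 and 6, a fold of 1.54 (0.371 to 6.05), which includes no difference. Both miR-4674 and miR-4732-3p had 2 counts in shWDR4 and 0 in control, for which no fold is given.

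The members were richer in G and C than the rest of the table. Median GC content was 63.4% over the 106 members with a sequence and 56.5% over the 1009 other entries with one. Among entries marked higher in the authors' deposited table it was 68.0% for the 21 members with a sequence, and 63.6% over all 169. Among entries marked lower it was 45.6% over all 120 in the authors' deposited table, whereas the 2 such members were at 63.6% and 69.6%. GC content thus moves with the direction of the difference over the whole table, and its part in the batch's difference was not tested.

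The letters GGAG and CCCU are known as motifs linked to the export of miRNAs in exosomes, and they were searched on the mature strand. GGAG stood in 29 of the 106 members (27.4%, beside 22.1% of all 1115 entries with a sequence) and CCCU in 21 (19.8%, beside 15.6%). Of the 6 members at least 2-fold higher with 50 counts or more, miR-4739 holds both and miR-4758-5p holds GGAG, and miR-4763-5p holds CCCU. Of the 3 that differed by less, miR-4741 holds GGAG and miR-4685-3p holds CCCU. The lower miR-4745-5p holds neither. Among all entries of that depth with a sequence, GGAG stood in 24.4% of the 82 higher, 21.5% of the 135 within and 13.8% of the 94 lower. For CCCU the shares were 9.76%, 12.6% and 4.26%. A link of the motifs to the difference was not tested. Neither motif stands in miR-4800-3p or miR-4785, the largest members.

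Other stretches of late numbers also took a larger share in shWDR4. The 63 entries from miR-4251 to miR-4540 summed to 1.21% of the shWDR4 and 0.203% of the control counts, 5.96-fold higher (5.67 to 6.27). The 229 entries from miR-6715 to miR-6895 summed to 1.45% and 0.745%, 1.95-fold higher (1.89 to 2.01). The place of the batch beside them depends on its largest entries, and the other stretches are given whole. With miR-4634 and miR-4787-5p the number range was 20.0-fold higher (19.2 to 20.8), the batch itself 4.02-fold, and the batch without its 3 largest members 2.10-fold (1.91 to 2.31). Over entries with at least 50 counts, the median log2 fold was 2.01 for the batch (10 entries). It was 2.85 for miR-4251 to miR-4540 (13 entries) and 1.00 for miR-6715 to miR-6895 (27 entries). Detection in shWDR4 alone was alike in size, with 32.8% of the batch, 31.7% of miR-4251 to miR-4540 and 35.4% of miR-6715 to miR-6895.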

How the data were processed

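Small RNA from exosomes of H1299 cells was sequenced in 6 libraries, 3 per group, per the labels. Each of the 2 deposited count columns joins the 3 libraries of a group, per the file headers, as whole read counts per mature miRNA, with no normalization. The authors' deposited table also gave a normalized log2 fold, of control over shWDR4, a Storey q-value and a mark, which per the file headers needs a q-value under 0.001 and a 2-fold difference. The submitters' processing notes name the tools FastQC, Trim Galore, Bowtie, SAMtools and edgeR. Not given in the sources used here are the genome build, the miRNA annotation and how reads matching several entries were counted.

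Counts were divided by the column total and multiplied by 1000000 (CPM), and folds are shWDR4 over control. A 2-fold size rule was applied where both columns summed to 50 counts or more, with 3 counts in place of a 0. The planned edgeR test needs values per library, so it was not run. Intervals were computed with scipy 1.17.1 and tested on simulated data that held counting error only, with no spread between libraries. Scale factors for the alternatives came from edgeR 4.0.16. Hairpin positions and mature sequences are from RefSeq (GRCh38.p14), matched by name, and host genes from the basic set of GENCODE release 29, on the same assembly. Positions belong to that assembly and were not read from the deposited files.

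Named members are those with at least 50 counts, those with the 5 highest and 5 lowest folds among the marked ones (ties included), both arms of the 6 hairpins with the most counts, and a list of members in genes of note. Others are named as chosen after their values were seen. The members and lists were chosen with earlier results of these data known.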

Additional observations from a re-analysis of the deposited data

How the results depend on the processing

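No paired analysis was possible because each group's 3 libraries were joined in 1 count column, and leaving out a library was not run for the same reason. Other scalings shift every log2 fold by 0.16 (trimmed mean of M values), -0.38 (upper quartile), 0.32 (totals without miR-3960) and 0.66 (totals without miR-3960, miR-6126 and miR-7704). The median log2 fold of the 10 members became 2.17, 1.63, 2.33 and 2.67 in that order, and that of all 349 entries -0.21, -0.75, -0.04 and 0.30. The fold of the summed share became 4.48, 3.08, 5.02 and 6.36. It was 3.03 without the largest member and 2.10 without the 3 largest, both chosen after seeing the data. Likewise the fold of the summed 3p members was 1.74 without the largest of them. The count of members at least 2-fold lower was 0 with each scaling except upper quartile, where it stayed at 1, since miR-4745-5p lies close to the limit, at a fold of 0.758 (0.389 to 1.38) without the 3 abundant entries. With a minimum of 20 counts, 13 members were higher and 4 lower, with a median of 0.93 over 29, beside 30.1% higher and 30.7% lower of all 501 entries of that depth. With a minimum of 200 counts, 3 were higher and 0 lower, with a median of 3.43 over 3, beside 23.1% and 32.7% of all 208 entries. Setting a 0 to 0.5 counts changed none of these values, since none of the 10 had a 0. Of the folds of 21 named members, 1 left its counting interval with upper-quartile scaling and 5 did so without the 3 abundant entries. Depth limits most members, since 60 of 116 had under 10 counts.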
